A study of Mus musculus with 12 samples.

Results

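Contacts of ESRP1 with the transcripts of 10 other splicing regulators were examined in mouse epidermis. The genes were Mbnl1, Mbnl2, Rbfox2, Qk, Ptbp1, Celf1, Tia1, Tial1, Rbm47 and Elavl1, which encode regulators of tissue-dependent splicing, or close relatives of them, that act with or against ESRP proteins. They are 10 of the 21900 protein-coding genes placed on the GRCm38 assembly. Sites were taken where they lay inside the annotated span of one of these genes and on its own strand. The list of genes was set by name and not by their site counts, although results of these data were known when it was drawn up.

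The immunoprecipitated samples were 6 FLAG pulldowns of ESRP1, and 6 inputs without antibody stood beside them, one of each from biological replicates 1 to 6. All 12 came from epidermis of back skin from Esrp1FLAG/FLAG pups on postnatal day 1, so that every library, inputs included, carried the tag on both alleles and no untagged animal was part of the samples. The assay was eCLIP, in which proteins are crosslinked to bound RNA with ultraviolet light and reverse transcriptase tends to stop at the crosslinked nucleotide. Protein–RNA complexes were recovered from the membrane between 75 and 140 kDa, per the labels' protocols. The authors deposited 3 lists of single-nucleotide sites, each called on 2 replicates together with input: list 1 from replicates 1 and 2, list 2 from replicates 3 and 4, and list 3 from replicates 5 and 6.

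ESRP1 and its paralog ESRP2 are RNA-binding proteins of epithelial cells that bind sequences rich in G and U, and set the splicing of exons that switch when epithelial cells turn mesenchymal. Other regulators act on many of the same exons. RBM47 is linked to epithelial splicing patterns, while RBFOX2, QK and MBNL1 are linked to mesenchymal ones, and PTBP1, CELF1, the TIA proteins and ELAVL1 are expressed in most tissues. Genes of splicing regulators are often themselves under control by RNA-binding proteins, both through alternative exons and through long 3′ untranslated regions.

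The lists held 73602, 40014 and 53864 sites, and the depth of the libraries behind them is unknown. Nothing was measured of gene expression, so that a gene with few sites cannot be told apart from a gene with little RNA. The annotation used gives the extent of each gene but no exons, so no site is assigned to an exon, an intron or an untranslated region here. Of the keratinocyte marker genes, 7 of 10 (70.0%) had a region in all 3 lists, against 17.0% of all protein-coding genes. There were 7 regions in the basal keratin gene Krt5 and none in Krt14, Krt1 or Krt10. Among genes that mark other skin cells, the count was 1 of 5 for melanocytes (Mitf), 1 of 6 for fibroblasts (Sparc), 1 of 5 for immune cells (Csf1r) and 0 of 5 for endothelium and muscle. The shares for melanocytes (20.0%), fibroblasts (16.7%) and immune cells (20.0%) were near that of all protein-coding genes. For Krt15, Trp63, Dsg1a, Perp and Csf1r the strand was taken from the sites, which favours finding regions. The melanocyte genes Tyr and Mlana, the fibroblast genes Col1a1, Pdgfra and Vim, and the immune genes Ptprc, Cd3e, Cd207 and Lyz2 had no site. The 5 genes of endothelium and muscle had none either. Sites mark contacts and not expression, and the part of other cell types in the results was not tested.

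Most of these regulator genes held ESRP1 sites, and Rbm47 and Qk held them at many places. In fewer of the genes did sites recur in all 3 lists. Of the 10 genes, 9 had at least 1 site, which 34.8% of all protein-coding genes had, and 43.0% of those with spans in the range of the regulators (10004 to 229445 nt). A region in all 3 lists was present in 6 of the 10: Rbm47, Qk, Rbfox2, Ptbp1, Tia1 and Elavl1. A region is a run of sites on a strand at most 10 nt apart, and it was found in all 3 lists when it held sites of each. Over all protein-coding genes the share with such a region was 17.0%. It was 21.2% among the 13148 genes with spans in that range and 48.8% among the 7617 genes with a site in any list. The median span of the regulators was 96065 nt, against 17146 nt for all protein-coding genes, and the part of span length and of expression in these counts was not tested.

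The 10 genes together held 93 sites in list 1, 29 in list 2 and 76 in list 3. Set against the size of each list, this was 12.6, 7.25 and 14.1 sites per 10000, or 11.3 ± 3.61 (SD, n = 3 lists). List 2 was thus the lowest of the lists also after its smaller size was allowed for. Joined over the lists, the sites gave 50 regions: 24 were seen in a single list, 13 in a pair of lists and 13 (26.0%) in every list. Of regions in protein-coding genes in general, 18.9% were in every list. Without list 2, 23 regions were in both remaining lists, which is a looser rule than all 3 lists. The share of all protein-coding genes with a region then rose too, from 17.0% to 20.8%. Rbm47 and Qk held 103 of the 198 sites (52.0%) and 8 of the 13 regions found in all 3 lists.

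**Figure D1:**
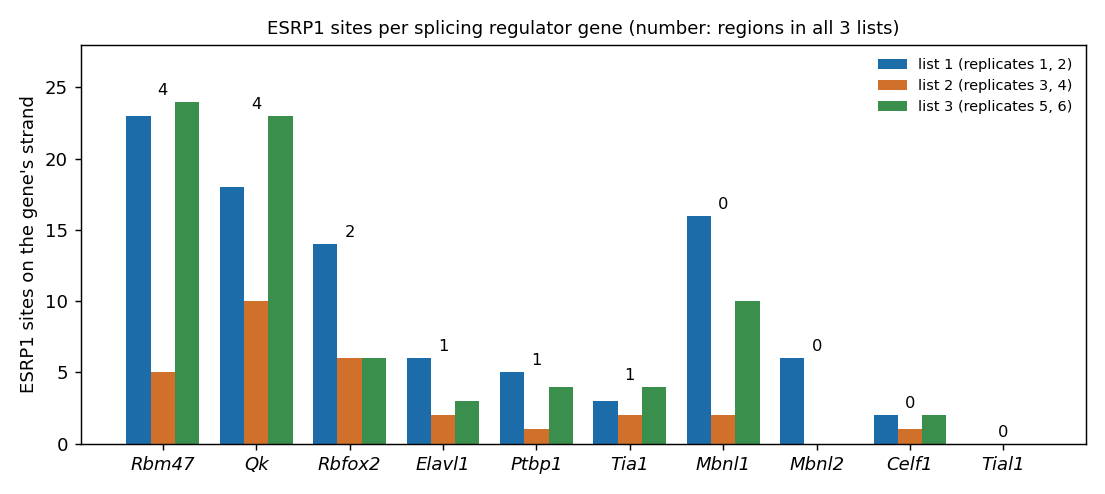
Number of ESRP1 sites on the gene's strand (vertical axis) in each of the 3 site lists (bars) for the 10 genes, with the number of regions found in all 3 lists printed above the bars. Rbm47 and Qk have 4 such regions each, Mbnl1 has 16, 2 and 10 sites but no region in all 3 lists, and Tial1 has no site.

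Rbm47 had 52 sites over the 3 lists, the most of the 10 genes, with Qk next at 51. It encodes an RNA-binding protein that works in splicing, in RNA stability and as a cofactor of C-to-U editing by APOBEC1. Its span covers chromosome 5, 66016549 to 66151954, on the minus strand. Lists 1, 2 and 3 held 23, 5 and 24 of its sites, in 8, 4 and 11 regions. Lists 1 and 3 were close to each other and list 2 was far below both.

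In Rbm47, 4 regions were found in all 3 lists. The strongest covered 66018510 to 66018515, with its last base 1961 nt before the 3′ end of the span. Its highest scores were 157, 88.9 and 116 in lists 1, 2 and 3, and these stood at percentiles 97.8, 95.5 and 96.2 of all sites of their lists. In each list the highest score fell on the same nucleotide, 66018515. Protein-coding genes had 6172 regions in all 3 lists, of which 313 had a higher mean percentile than this one.

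A second Rbm47 region covered 66016673 to 66016683, only 124 nt before the annotated end, at percentiles 86.9, 78.8 and 74.8. Another, at 66026259 to 66026263, lay 9710 nt before the end, at percentiles 63.3, 71.1 and 55.9. The last lay at the other end of the gene, at 66150141 to 66150147. It was 1807 nt into the span and 831 nt downstream of the nearest of 3 annotated transcription starts, at percentiles 90.6, 75.2 and 77.3. These contacts sat toward both ends of a span of 135406 nt. In the long stretch between 66026263 and 66150141 there was a single region of 3 sites, seen in list 3 alone.

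Around the strongest region the 3′ end of Rbm47 carried a dense group of weaker contacts. The last 2000 nt, which make up 1.48% of the span, held 9 of the 12 regions of the gene, spread over 1880 nt. They held 14, 2 and 14 sites in lists 1, 2 and 3. Of these 9 regions, 2 were in all 3 lists and 3 in lists 1 and 3 but not in list 2, among them one only 14 nt from the strongest region. Without list 2, Rbm47 had 7 regions in both remaining lists.

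Qk was the other gene with 4 regions in all 3 lists. It encodes the quaking proteins, which belong to the STAR family and act in splicing, in RNA stability and in the formation of circular RNA, with a classic role in myelination. Its span covers chromosome 17, 10206471 to 10319361, on the minus strand, and held 18, 10 and 23 sites in lists 1, 2 and 3. List 2 was lowest here too, but the gap was narrower than in Rbm47.

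The longest region of all 13 lay in Qk, at 10207019 to 10207038, 548 nt before the 3′ end. It held 9, 4 and 6 sites and its highest scores stood at percentiles 86.6, 75.8 and 88.7. Another, at 10206718 to 10206719, was 247 nt before the end, with 2 sites in each list at percentiles 78.2, 86.2 and 68.6. These are the strong contacts of the gene. The last 2000 nt (1.77% of the span) held 7 of the 12 Qk regions, all within 800 nt, with 13, 6 and 13 sites.

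The remaining 2 Qk regions in all 3 lists lay side by side, 6703 and 6723 nt before the annotated end, at 10213174 to 10213180 and 10213194 to 10213203. They were 14 nt apart, just beyond the joining distance. Both were weak: the first stood at percentiles 20.3, 36.9 and 8.04, and the second at 22.7, 47.5 and 54.0. Of all such regions in protein-coding genes, 1.17% and 9.22% had a lower mean percentile. With only the 50% of sites with the highest scores, Qk kept 2 regions in all 3 lists, and without list 2 it had 7.

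A count of 4 or more such regions was reached by 237 protein-coding genes (1.08% of all, and 3.11% of those with a site). Rbm47 and Qk were 2 of these, and 105 genes had more regions than they did. With sites joined at most 1 nt or at most 50 nt apart, Qk had 3 such regions and Rbm47 had 4. With only the 50% of sites with the highest scores, Qk had 2 and Rbm47 had 4. With sites joined at most 10 nt apart, 3 of the 10 regulators (Rbm47, Qk and Rbfox2) had at least 2 such regions. So did 1418 protein-coding genes (6.47% of all), all of them among the 7617 with a site in any list. The spans of the 3 regulators run from 112891 to 229445 nt, and the part of span length in this was not tested. Of all protein-coding genes with a region in all 3 lists, 61.8% had a single one.

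**Figure D2:**
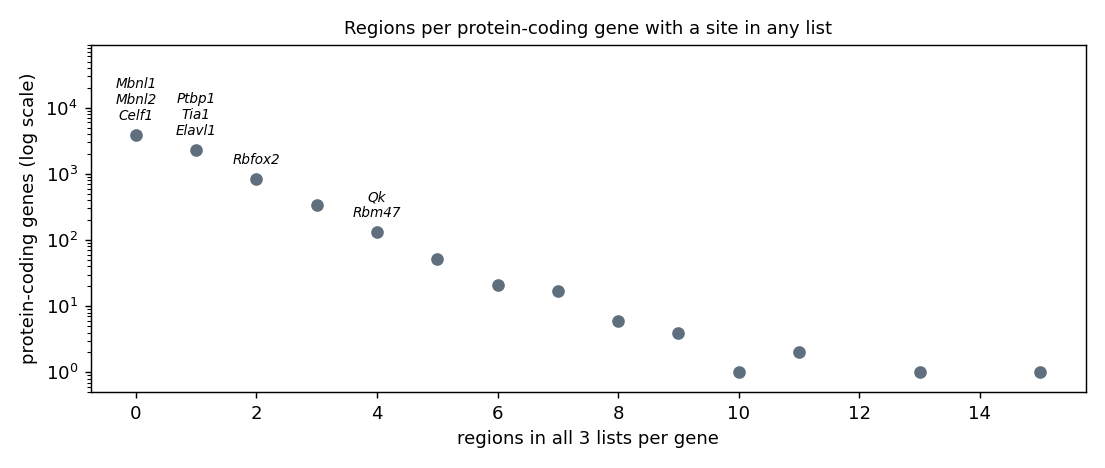
Number of protein-coding genes with a site in any list (vertical axis, log scale) by the number of regions found in all 3 lists per gene (horizontal axis). Of these genes 3903 had no such region and 132 had 4, among them Qk and Rbm47.

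Rbfox2 had 2 regions in all 3 lists, at mean percentiles of 66.3 and 60.5. Both were below 73.4, the median of the mean percentile over such regions in protein-coding genes. RBFOX2 is a splicing factor that binds UGCAUG and acts with or against ESRP proteins at many exons. Its span is the longest of the 10, at chromosome 15, 77078990 to 77308434. The promoter table used holds no start of this gene, so its strand was taken from its sites, all 26 of which lay on the minus strand. Lists 1, 2 and 3 held 14, 6 and 6 sites.

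One Rbfox2 region covered 77082460 to 77082473, 3470 nt before the 3′ end, at percentiles 60.5, 65.8 and 72.6. The other covered 77228487 to 77228492, deep inside the gene, 79942 nt downstream of its 5′ end, at percentiles 60.8, 68.2 and 52.4. A weaker region of lists 2 and 3 lay 13 nt from it. A further region, at 77208841 to 77208853, was seen in lists 1 and 3 and was held together by a step of exactly 10 nt, the longest that joins sites.

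Ptbp1 had few but strong contacts. It encodes the polypyrimidine tract binding protein, a repressor of many alternative exons, among them one in its own transcript. Its span is the shortest of the 10, at chromosome 10, 79854432 to 79864435, on the plus strand, and held 5, 1 and 4 sites in lists 1, 2 and 3. All of them lay within 32 nt, close to the 3′ end.

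The Ptbp1 region in all 3 lists covered 79864224 to 79864225, 210 nt before the end of the span. Its highest scores were 96.8, 29.5 and 82.1, at percentiles 94.3, 77.8 and 92.1. They fell on nucleotide 79864224 in lists 1 and 2 and on 79864225 in list 3, where 79864224 was a site too. Among the 13 regions it had the second highest mean percentile, after the strongest of Rbm47. A region 27 nt away, at 79864194 to 79864197, stood at percentile 93.6 in list 1 and 57.9 in list 3 and was not in list 2. The gene Plppr3 overlaps this end of Ptbp1, and the annotated strand of Plppr3 is the opposite one.

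TIA1 and TIAL1 are close paralogs that bind U-rich sequence next to weak splice sites and also repress translation, yet the sites in their genes were unequal in number. Tia1 (chromosome 6, 86404203 to 86433405, plus strand) had 3, 2 and 4 sites, all in 1 region at 86432511 to 86432519, 886 nt before the 3′ end. The scores reached percentiles 93.5, 69.6 and 85.5. Tial1 (chromosome 7, 128439772 to 128461726, minus strand) had no site in any list, on either strand. It was the only gene of the 10 without a site on its own strand.

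Elavl1 encodes HuR, a protein that binds AU-rich and U-rich sequence and stabilises many messenger RNAs. It had 6, 2 and 3 sites, all in 1 region at chromosome 8, 4315226 to 4315232, on the minus strand. This region lay 9908 nt after the 5′ end and 30445 nt before the 3′ end. Its strength differed between lists, at percentiles 72.1, 23.6 and 49.1, and with only the 50% of sites with the highest scores it was no longer in all 3 lists. No site of Elavl1 lay in the last 2000 nt.

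The muscleblind genes and Celf1 had sites but no region in all 3 lists. MBNL proteins drive adult and differentiated splicing patterns, and CELF1, which binds GU-rich sequence, opposes them at many exons. Mbnl1 (chromosome 3, 60472559 to 60629750, plus strand) held 16, 2 and 10 sites, so that list 2 had far fewer than the others. Its region at 60626908 to 60626914, 2836 nt before the 3′ end, was in lists 1 and 3 at percentiles 75.5 and 90.7. A second, at 60627570 to 60627575, 2175 nt before the end, was in the same lists at percentiles 68.5 and 72.7. Inside the gene, the region at 60540032 to 60540035 was in lists 1 and 2 at percentiles 74.3 and 45.9. Mbnl1 thus had 2 regions in both remaining lists without list 2 and 1 without list 3. Leaving out a list is a looser rule than asking for all 3 lists.

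Mbnl2 (chromosome 14, 120275652 to 120431698, plus strand) had 6 sites in list 1 and 0 in lists 2 and 3, so no contact in it recurred. Celf1 (chromosome 2, 90940259 to 91019497, plus strand) had 2, 1 and 2 sites. Of these, 1, 1 and 2 lay within 206 nt of each other in the last 2000 nt, and in lists 2 and 3 they met in a region at 91018357 to 91018363, at percentiles of only 31.6 and 21.3. A site of list 1 lay 22 nt away. Joined at most 50 nt apart, these sites formed a region in all 3 lists, and Celf1 then had 1.

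**Figure D3:**
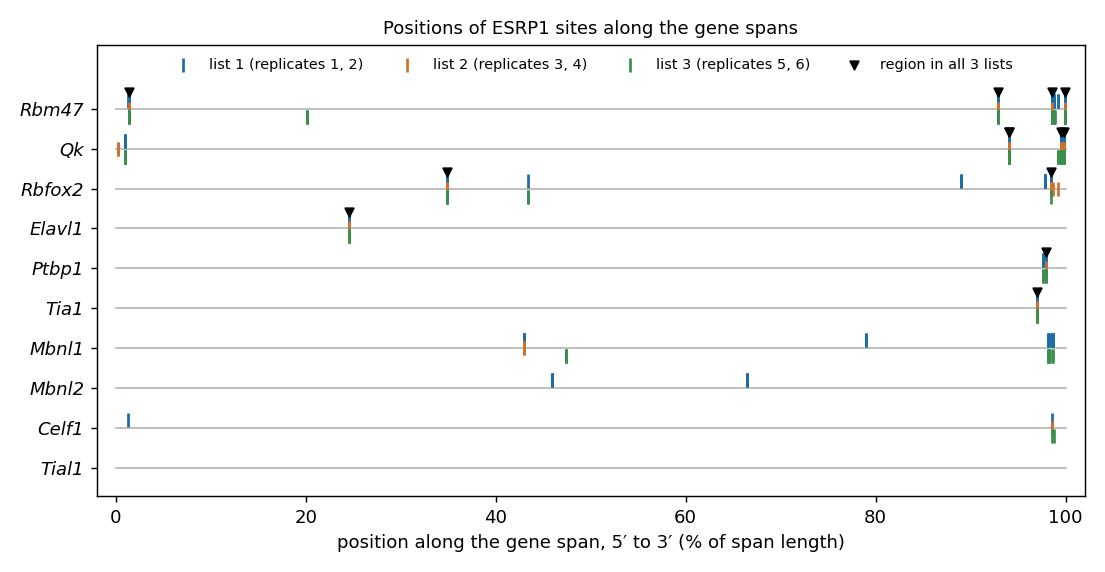
ESRP1 sites along the spans of the 10 genes (horizontal axis, percent of span length from 5′ to 3′), with a tick per site coloured by list and a triangle at each of the 13 regions found in all 3 lists. The triangles of Ptbp1 and Tia1 and most of those of Rbm47 and Qk stand at the right end, and that of Elavl1 stands at 24.6%.

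Contacts were frequent at the 3′ ends of these genes, as they were in protein-coding genes in general. Of the 13 regions in all 3 lists, 5 (38.5%, 95% exact binomial interval 13.9 to 68.4) lay in the last 1000 nt of the span: 2 in Qk and 1 each in Ptbp1, Tia1 and Rbm47. For all protein-coding genes with spans of at least 4000 nt the share was 20.2% (19.2 to 21.2), a value inside the interval of the regulators. In the first 1000 nt there were 0 of 13 regions (95% exact binomial interval 0.0 to 24.7). The share in all protein-coding genes was 8.99%, a value inside that interval. With the window widened to the last 2000 nt and regions of any number of lists counted, the share was 23 of 50 (46.0%) in the regulators, against 24.4% in all protein-coding genes. Regions of a gene share their transcript, and Qk and Rbm47 gave 16 of these 23, so the intervals, which cover counting error only, are too narrow.

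**Figure D4:**
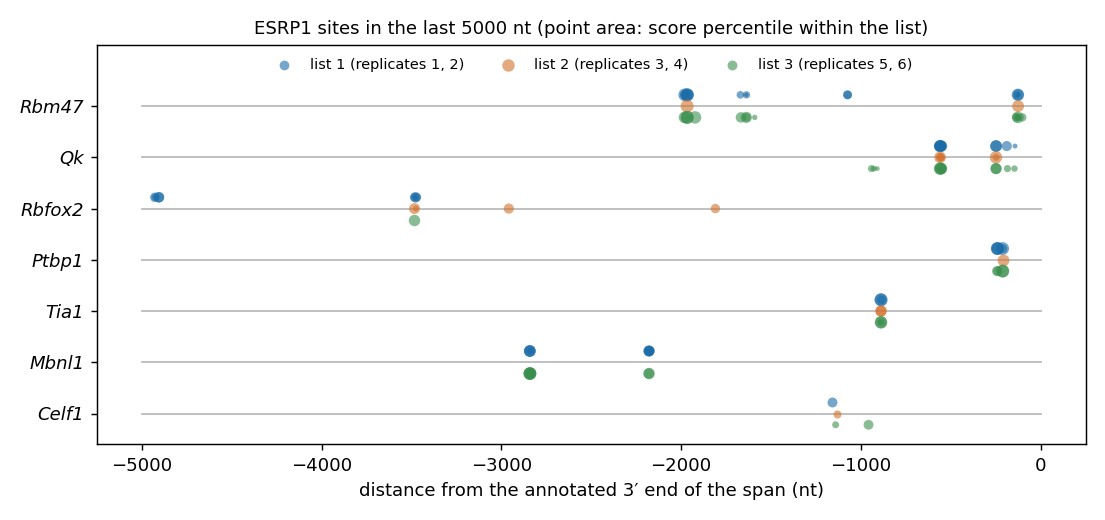
ESRP1 sites in the last 5000 nt of the spans (horizontal axis, nt from the annotated 3′ end) for the 7 genes with a site there, coloured by list, with point area giving the score percentile within the list. All 3 lists have a site at the same distance at places such as 211 nt in Ptbp1, 888 nt in Tia1 and 1966 nt in Rbm47, whereas Mbnl1 has points of lists 1 and 3 only.

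Regions found in every list had higher score percentiles than the others, without a test of the difference. Each percentile is that of the highest score among a region's sites in a list, which favours regions with more sites. The part of this in the difference was not tested. The median of the mean percentile was 77.7 for the 13 regions in all 3 lists, 44.8 for the 13 in 2 lists and 45.6 for the 24 in 1 list. For all such regions of protein-coding genes it was 73.4, beside the 77.7 of the regulators. Among the 13, the mean percentile ran from 21.7 in Qk to 96.5 in Rbm47. The regions were short, 2 to 20 nt long with a median of 7 nt, and 11 of the 13 held at least 1 nucleotide that was a site in all 3 lists. In 3 of them the highest score fell on the same nucleotide in each list. The same counts over all protein-coding genes are not given here, so whether this is particular to the regulators was not tested.

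**Figure D5:**
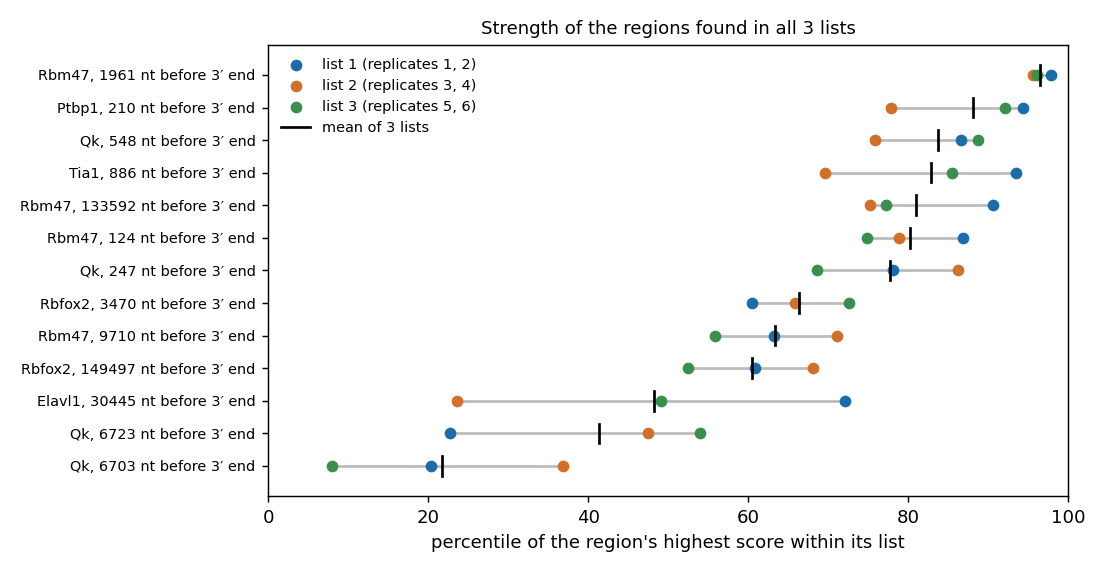
Percentile of the highest score within its list (horizontal axis) for each of the 13 regions found in all 3 lists, with a point per list and a black bar at their mean. The strongest region of Rbm47 is above 95 in every list, while that of Elavl1 runs from 23.6 to 72.1.

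Lists from different biological replicates found many of the same contacts in these genes. Of the 20 regions of list 2, 14 (70.0%, 95% exact binomial interval 45.7 to 88.1) lay within 10 nt of a site of list 1 and 15 (75.0%, 50.9 to 91.3) of a site of list 3. The shares over all protein-coding genes were 51.3% and 43.4%. Of the 35 regions of list 1, 14 (40.0%) were near a site of list 2 and 23 (65.7%) near one of list 3, against 44.0% and 51.8%. Of the 34 regions of list 3, 23 (67.6%) were near a site of list 1 and 15 (44.1%) near one of list 2, against 60.6% and 43.5%. List 2 therefore held the fewest contacts in the regulators, and most of those it held were also in another list. Of the 13 regions in exactly 2 lists, 10 were missing from list 2, 2 from list 1 and 1 from list 3. The same split over all protein-coding genes is not given here. In those genes lists 1, 2 and 3 held 19156, 16757 and 16656 regions.

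A smaller share of the closest relatives of these regulators had recurrent contacts, although the difference was not tested. A paralog without contacts cannot be told apart from one with little RNA in epidermis. Of 17 paralogs, 9 had a site and 3 (17.6%) had a region in all 3 lists, against 6 of the 10 regulators. Ptbp3, a paralog of Ptbp1 that is known from blood cells, had 23, 11 and 23 sites and 4 regions, which lay 842 to 2407 nt before the 3′ end of its span. The strongest, at chromosome 4, 59474275 to 59474287, was the farthest from the end and stood at percentiles 99.4, 98.5 and 99.2, above every region of the 10 regulators. The annotated strand of Ptbp3 was not in the table used, and its minus strand was taken from its sites. The neuronal paralog Ptbp2 had 1, 1 and 0 sites.

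The other 2 paralogs with a region in all 3 lists had 1 each, both far inside long genes. That of Khdrbs2, a STAR protein related to Qk, stood at percentiles 96.4, 94.4 and 92.9, and that of Elavl2, a neuronal relative of Elavl1, at 84.6, 33.1 and 51.5. Of the others, Khdrbs1 had 4, 2 and 2 sites, Rbfox3 4, 4 and 0, Rbfox1 5, 0 and 0, Celf5 4, 0 and 0, and Mbnl3 0, 3 and 0. No site lay in Celf2, Celf3, Celf4, Celf6, Elavl3, Elavl4, A1cf or Khdrbs3. The families of Mbnl1 and Celf1 thus had no member with a region in all 3 lists.

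Of 14 other regulators of alternative splicing, 7 had a site and 2 (14.3%) a region in all 3 lists. Msi2, a musashi protein of stem and epithelial cells, had 12, 9 and 15 sites and 2 regions, at mean percentiles of 74.2 and 59.5. Rbm10, an RNA-binding protein that promotes exon skipping, had 4, 2 and 4 sites and 1 region, 638 nt after its 5′ end. These shares lie near the 17.0% of all protein-coding genes, and the genes of both groups were chosen from general knowledge, with results of these data known.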

How the data were processed

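The authors deposited 3 lists of single-nucleotide sites, each with a score whose scale is not stated; per the file headers each was called on 2 replicates with input. Builds GRCm38 and mm10 and the tools HOMER, HISAT2 2.1.0 and cutadapt 1.16 are listed in the submitters' processing notes, with no role stated. For the caller, its settings, PCR duplicates and multiple alignments, the treatment was not given in the sources used here. Calling on pooled replicates hides the spread within a list, and weighting by input can remove sites in abundant RNA.

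Spans came from a RefSeq gene table of GRCm38.p6, and strands from RefSeq promoter records, which gave 17492 of 21900 protein-coding genes a strand. For 1658 others the strand with most sites was taken, a step that favours finding regions. Genes without strand or site (2750) counted as unbound. Coordinates are 1-based. Sites at most 10 nt apart were joined, and distances to gene ends run from the nearest base of a region. Score percentiles are ranks within a list. The counting was tested on simulated sites. Python 3.11.15, NumPy 2.4.6, pandas 2.3.3 and SciPy 1.17.1 were used.

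No significance test was run, because the lists hold no groups to compare. The 10 genes, the 17 paralogs and the 14 other regulators were chosen with earlier results of these data known. All 10 genes were named, paralogs where they had a site, and other regulators where they had a region in all 3 lists. Genes without a site were named after their values were seen. No genome sequence was used here, so planned results on exons and on UGG content were not run. Alternatives varied the joining distance, the score, the lists, the strand, the sites under other genes and the window at gene ends.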

Additional observations from a re-analysis of the deposited data

Results flagged for a closer look

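A region on the strand opposite to Mbnl1 was found in all 3 lists, outside the sites counted for any of the 10 genes. It covered chromosome 3, 60509039 to 60509044, on the minus strand, with 5, 4 and 2 sites. Its highest scores were 71.3, 54.6 and 22.5 in lists 1, 2 and 3, at percentiles 90.8, 90.1 and 57.7 of their lists. It was thus in every list, while no region on the own strand of Mbnl1 was. Another 6 sites of list 3 lay on that strand, in 2 regions of 3 sites each. No other annotated gene overlaps the span of Mbnl1 in the table used, and none of the other 9 genes had a site on its opposite strand.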

How the results depend on the processing

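No paired analysis was possible because each list pools 2 replicates with input and no test was run. Of the 10 genes, those with a region in all 3 lists numbered 5 to 7 under all alternatives, and without any 1 list it was 7. Their regions numbered 13 under the main rule. They numbered 12 with sites joined at most 1 nt apart and 13 at most 50 nt apart. With the 50% of sites with the highest scores they numbered 10, and on either strand 14. When a list was left out they numbered 14 to 23: 23 without list 2, 15 without list 1 and 14 without list 3. Leaving out a list asks for sites of both remaining lists only, a looser rule that favours higher counts. The share of protein-coding genes with a region was 17.0%, and it was 15.4% with sites joined at most 1 nt apart, 17.6% at most 50 nt apart, 12.1% with the 50% of sites with the highest scores, 16.1% without sites under another gene, 18.5% on either strand and 18.2% to 21.0% without a list. The share of a list's regions near a site of 1 given other list was averaged over both other lists. Its mean was 60.4% ± 10.6 (SD, n = 3 lists), and 47.9% with sites joined at most 1 nt apart. The share in the last 1000 nt was 33.3% to 35.7% without a list, and 23.1% and 46.2% in the last 500 and 2000 nt. In 10 of 80 counts for single genes the value moved by over 1.5 times, those of Mbnl1, Celf1, Qk, Rbm47, Ptbp1 and Elavl1. Ptbp1 had 2 regions without list 2, Celf1 had 1 without list 1, and Mbnl1 had 1 with either strand counted. The cause of these shifts was not tested. The depth of the libraries is unknown, so a missing site does not show a missing contact.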
